A study of Mus musculus with 18 samples.

Results

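The 33 genes described here encode proteins of homologous recombination, of the Fanconi anaemia pathway and of the checkpoint kinases that act with them. They were chosen by name out of 57126 genes in the table, with earlier results of these data known. RNA sequencing covered 18 mouse mammary tumors, after removal of ribosomal RNA: 7 MaP R172H/-, 5 MaP R245W/- and 6 MaP -/- tumors. In all groups, female F1 mice of a BALB/c and C57BL6/J cross were given adenovirus with Cre recombinase into the mammary ducts. Cre turned the wild-type Trp53 allele into a missense allele in the mutant groups, R172H or R245W, beside a deleted allele, and left no Trp53 allele in the MaP -/- group. Recombination was limited to mammary epithelial cells, so that stroma and immune cells of each tumor kept wild-type Trp53. A Rosa26LSL-TdTomato allele was carried by 3 of the MaP R172H/- mice, 3 of the MaP R245W/- mice and 0 of the MaP -/- mice. Only 4 mice supplied the MaP -/- tumors, and 2 of them gave 2 tumors each. Every MaP R172H/- library was read on a HiSeq instrument and every other library on a NovaSeq instrument, and the subtypes divide along the same line, luminal B or HER2-enriched against triple-negative. Read length went with the instrument. All MaP R172H/- tumors were nonmetaplastic adenocarcinomas, while both other groups also held metaplastic tumors. Platform, read length, subtype and R172H genotype therefore cannot be told apart, and histology differs in part along the same line. Total counts per tumor were between 23113578 and 27930163 in the MaP R172H/- group, 30030630 and 37365062 in the MaP R245W/- group, and 24736337 and 32085794 in the MaP -/- group.

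Homologous recombination repairs a double-strand break by copying the sister chromatid, and so works mainly in the S and G2 phases. The end is first trimmed to single-stranded DNA, which RPA covers, and BRCA1, PALB2 and BRCA2 then prepare the strand for pairing with the sister chromatid. The Fanconi core complex attaches ubiquitin to FANCD2 and FANCI at crosslinked DNA, while ATM, ATR, CHEK1 and CHEK2 signal the damage and hold the cell cycle. Many of these genes are transcribed more in dividing cells, and Mki67, which encodes the Ki-67 antigen of dividing cells, was therefore set beside them in every tumor. Levels are given as CPM, counts scaled to a common library size, with sizes normalized by TMM. In whole tumors, fewer cells of a type and less RNA per cell cannot be told apart.

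The genotype was first set against the RNA of Trp53 itself. Its level was between 9.43 and 21.6 CPM, with a median of 12.2, in the MaP -/- tumors. In 6 of the MaP R172H/- tumors it was 41.4 CPM or more, while tumor YZ11 stood at 10.8. The MaP R245W/- tumors JM1233, JM1564, RM0014, JM1126 and JM1133 held 11.4, 27.1, 9.09, 27.6 and 59.0 CPM. Trp53 was thus no higher than in the MaP -/- tumors in 1 MaP R172H/- and 2 MaP R245W/- tumors, and gene counts do not show which allele was read. The epithelial origin was set against 9 epithelial markers, whose summed level in the MaP R172H/- tumors was lowest at 379 CPM, in YZ7, with a median of 4148 and a highest value of 9793. The lowest sum was 478 CPM in the MaP R245W/- group, in JM1233, and 164 CPM in the MaP -/- group, in JM779-T1. These 3 tumors held the least epithelial marker RNA of all. The study classed YZ7 as a nonmetaplastic adenocarcinoma of the luminal B subtype and JM1233 as a metaplastic sarcomatoid carcinoma. The labels name JM779-T1 and JM836-T1, whereas the study's sample list marks the other tumor of each of these mice as sequenced, so that their histology is not known here.

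The upstream sequence is shown for 3 genes. Fance and Fancl, both of the Fanconi core complex, were the genes called between groups, and Brip1, a helicase partner of Brca1, was 1 of 4 genes with a called slope on mitotic genes. Of these 4 it had the highest FDR and was chosen because it held an E2F-type match, which Exo1, Chek1 and Brca1 did not. Each sequence is the 250 bases before the canonical transcription start (GENCODE M39, GRCm39), read 5′ to 3′ on the gene's strand, with matches to the motifs searched in capitals. They lie at chr17:28532238-28532487 (plus strand) for Fance, chr11:26335885-26336134 (plus strand) for Fancl and chr11:86092044-86092293 (minus strand) for Brip1.
Fance: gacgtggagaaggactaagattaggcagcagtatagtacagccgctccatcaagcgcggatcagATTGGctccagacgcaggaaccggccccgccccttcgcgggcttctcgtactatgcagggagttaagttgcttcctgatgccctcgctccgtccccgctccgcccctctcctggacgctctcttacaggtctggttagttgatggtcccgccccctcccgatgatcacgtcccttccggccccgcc
Fancl: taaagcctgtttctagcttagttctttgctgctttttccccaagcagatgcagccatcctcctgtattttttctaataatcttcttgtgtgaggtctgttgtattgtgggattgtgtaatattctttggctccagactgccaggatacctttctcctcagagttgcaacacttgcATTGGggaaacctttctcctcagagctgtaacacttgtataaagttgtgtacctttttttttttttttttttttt
Brip1: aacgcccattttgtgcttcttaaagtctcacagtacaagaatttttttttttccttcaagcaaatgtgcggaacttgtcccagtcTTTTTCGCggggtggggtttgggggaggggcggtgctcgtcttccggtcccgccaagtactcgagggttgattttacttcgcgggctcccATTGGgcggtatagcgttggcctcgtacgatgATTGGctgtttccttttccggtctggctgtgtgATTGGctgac
On both strands, 3 motifs of genes transcribed in the cell cycle were searched: an E2F-type site (TTTNNCGC), the cell cycle homology region (TTTGAA) and the CCAAT box (CCAAT). Brip1 held 1 E2F-type match, in its TTTTTCGC, and 3 CCAAT boxes, all on the opposite strand (ATTGG). Fance and Fancl held 1 CCAAT box each, and no match of the other motifs. Among all 33 genes an E2F-type match was found in 4, Bard1, Brca2, Brip1 and Chek2, or 12.1% against 5.14% of 21751 promoters. The match was TTTCCCGC in Bard1 and its reverse complement GCGGGAAA in Brca2 and Chek2. That of Brip1 differs from these, with T at both open positions (N) of the motif. The cell cycle homology region was found in 12.1% against 15.6%, and a CCAAT box in 51.5% against 36.5%. These matches describe letters in a window and were not tested as sites.

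Each of the 33 genes passed the filter on low counts in every comparison, so none is missing from the counts of genes given here. Per kilobase of exon, the highest medians over the 18 tumors were those of Rad50 at 11.2 CPM per kb, the ATPase of the end-binding MRN complex, and of Rpa1 at 11.1, the large subunit of the protein that covers single-stranded DNA. Atm, the kinase called by double-strand breaks, had 8.41 and Brca1 7.92 CPM per kb. The lowest medians were those of Rad51b, at 1.03, and Rad51c, at 0.750 CPM per kb. Between tumors, the highest value was 1.88 times the lowest for Xrcc3 and 1.89 times for Rad52. It was 6.08 times the lowest for Rbbp8, whose protein CtIP starts the trimming of DNA ends, and 5.93 times for Rad51c, with the highest value in YZ7 for both genes.

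**Figure D1:**
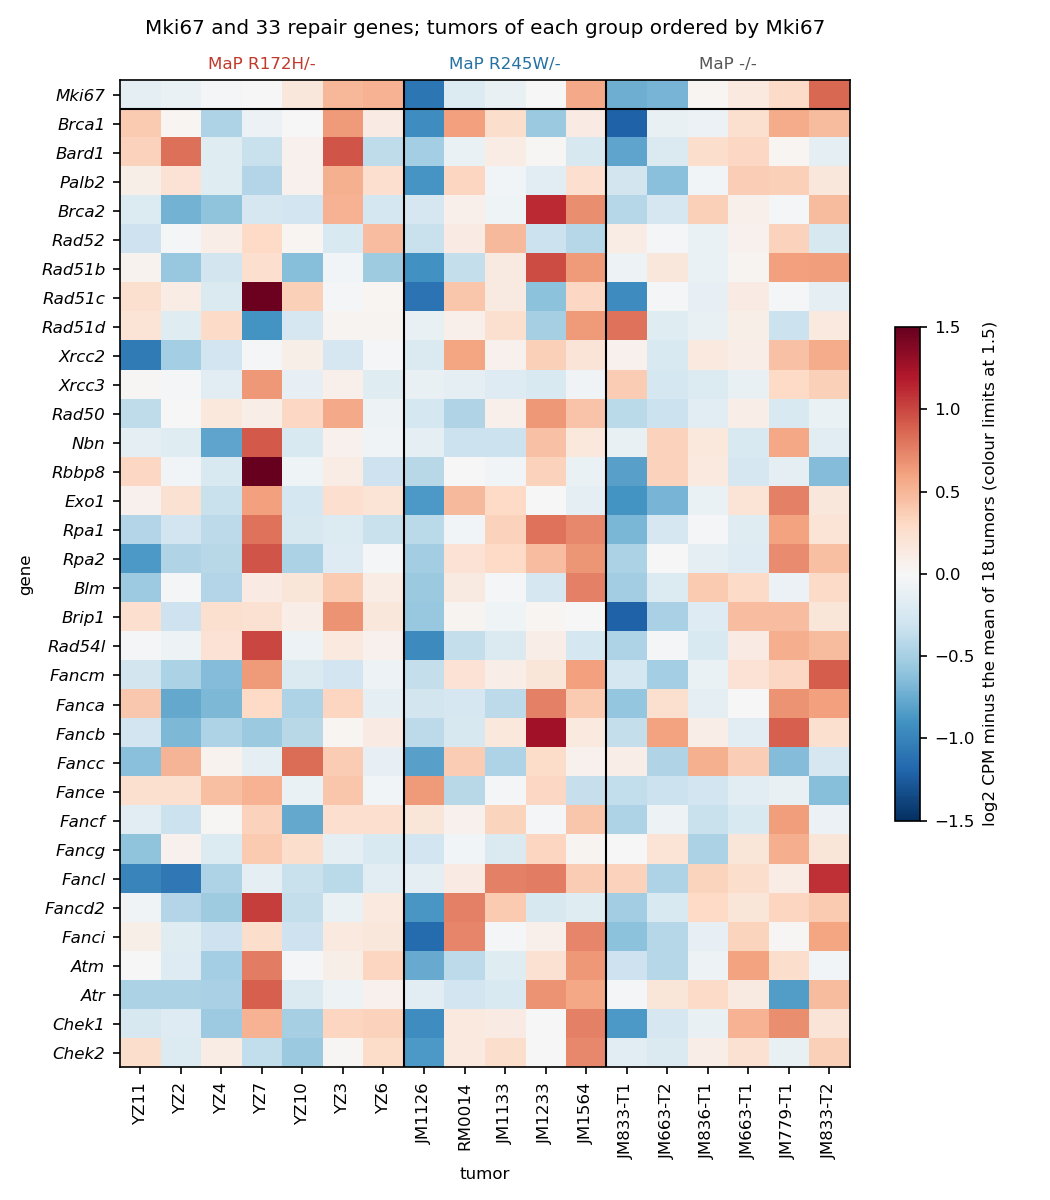
Level of Mki67 and of the 33 repair genes (rows) in the 18 tumors (columns), as log2 CPM minus the mean over all tumors, in colour; tumors of each group are ordered by Mki67. Columns of low repair gene levels, JM1126 and JM833-T1, stand at the low Mki67 end of their groups, where 2 and 8 of the 33 genes were above their median. YZ4 and JM663-T2 also had 8 genes above the median.

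The first question was whether tumors with R172H differed from tumors without p53 in these genes. Fance was called higher, and none of the other 32 genes was. Fance encodes the subunit that links the core complex to FANCD2. Its level was between 14.8 and 22.7 CPM in the 7 MaP R172H/- tumors, with a median of 18.6. In the 6 MaP -/- tumors it was between 10.1 and 14.6 CPM, with a median of 12.7, so that the groups did not overlap. The log2 fold change was 0.59 (SE 0.159, edgeR FDR 0.0362). The call was lost when tumors of 1 mouse were summed (FDR 0.0994) and in a fit of all 18 tumors (FDR 0.0686). Across all 20954 genes tested, 3.67% were called higher and 4.73% called lower in this comparison, and without overlap of the groups 2.01% were higher and 2.62% lower. One member of 33 called higher is thus close to the share of all genes. No member was called lower. At an unadjusted p below 0.05, edgeR had 1 member higher and 2 lower, against 11.6% and 13.1% of all genes, and DESeq2 called 1 higher and 1 lower at an FDR below 0.05, against 4.81% and 6.59%. The member lower with DESeq2 was Fancl, described below with the comparison of the mutants. Leaving out 1 tumor at a time kept the log2 fold change of Fance between 0.52 and 0.64, but the FDR between 0.0321 and 0.0790, below 0.05 in 4 of 13 fits, those without YZ6, YZ7, YZ10 or JM779-T1. A lncRNA gene on the opposite strand, Gm49886, overlaps Fance but had a median of 18 counts against 409, and the strand setting of the counting is not given in the sources used here.

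None of the other 32 members passed the edgeR test, and their groups overlapped. The median log2 fold change over the 33 genes was -0.04, against 0.0027 over all genes tested. Of the 33 values 14 were above 0 and 19 below, from -0.80 for Fancl to 0.60 for Rbbp8 (SE 0.345, edgeR FDR 0.302). Brca1, whose protein directs breaks to recombination, was between 48.0 and 102.8 CPM in the MaP R172H/- tumors, with a median of 67.4. In the MaP -/- tumors it was between 28.4 and 96.8 CPM, with a median of 70.0. The ranges overlapped, although the MaP -/- range reached lower, with a log2 fold change of 0.07 (SE 0.255, edgeR FDR 0.899). Brca2, whose protein acts on the trimmed strand, had medians of 28.9 CPM in the MaP R172H/- and 35.4 CPM in the MaP -/- tumors, within ranges of 21.3 to 49.8 and 25.7 to 48.3 CPM (log2 fold change -0.26, SE 0.210, edgeR FDR 0.481). For Chek1, the kinase that halts cells with stalled replication, the medians were 14.6 and 17.2 CPM, within ranges of 11.4 to 23.8 and 9.13 to 26.9 CPM (log2 fold change -0.09, SE 0.269, edgeR FDR 0.869). For Atm they were 127.5 and 122.7 CPM, within ranges of 90.1 to 217.1 and 95.1 to 193.9 CPM (log2 fold change 0.09, SE 0.215, edgeR FDR 0.841). By role, the medians of the log2 fold changes were 0.07 for the 5 genes of the BRCA complex and mediators, -0.16 for the 5 genes Rad51b, Rad51c, Rad51d, Xrcc2 and Xrcc3, 0.03 for the 6 genes of end resection and single-strand DNA, 0.05 for the 4 helicases and translocases, -0.16 for the 7 genes of the Fanconi core complex, -0.02 for the pair of Fancd2 and Fanci, and -0.08 for the 4 checkpoint kinases. Fancb, an X-linked core complex gene, had a log2 fold change of -0.56 (SE 0.242) at an unadjusted edgeR p of 0.0357 and an FDR of 0.167.

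**Figure D2:**
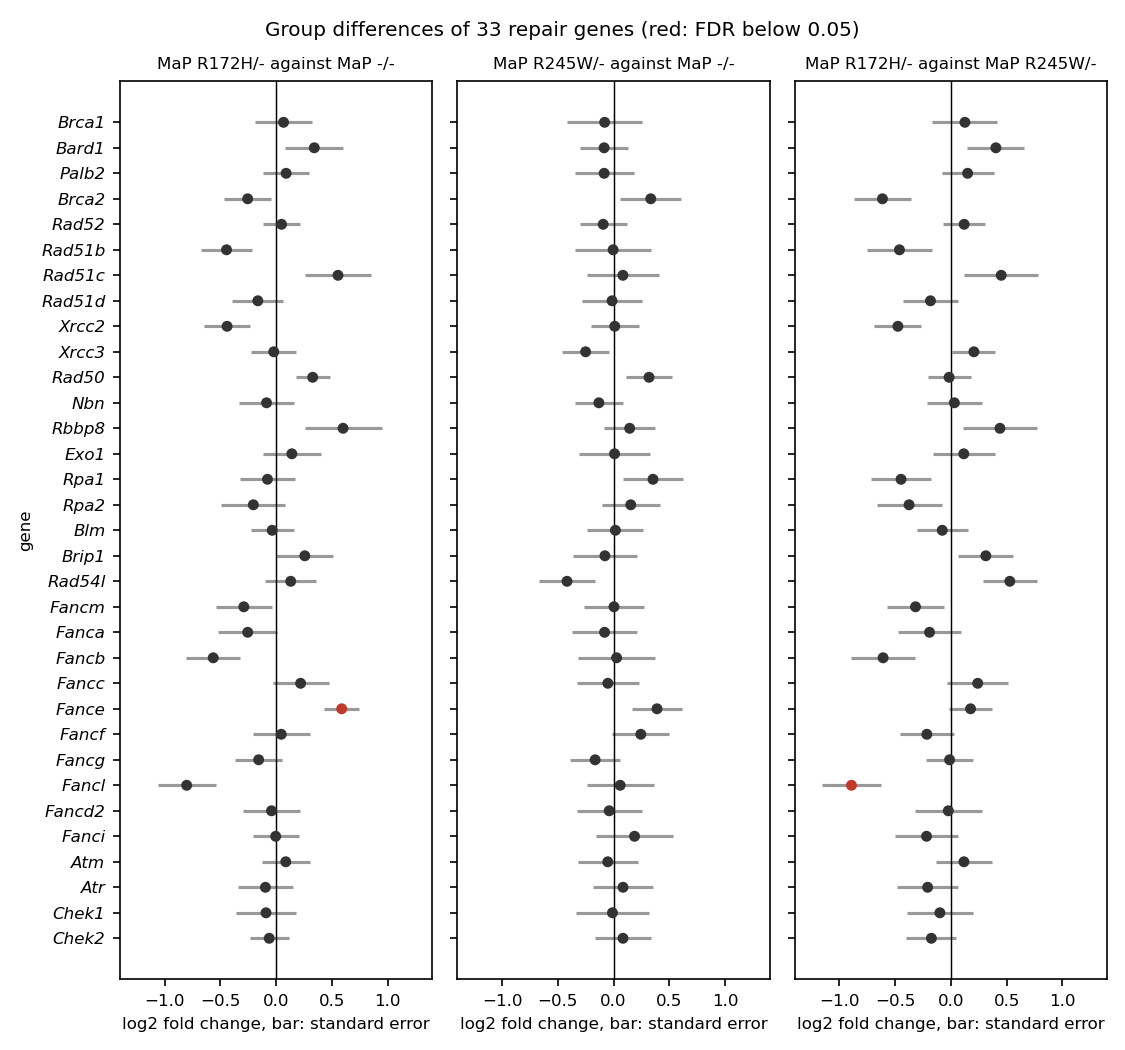
Log2 fold change of each of the 33 genes in the 3 comparisons of groups, with its standard error as the bar; red marks an edgeR FDR below 0.05. One gene is red in the first panel, Fance at 0.59, none in the second, and 1 in the third, Fancl at -0.89.

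Genes of the same pathways outside the 33 were described from lists. Across all genes tested between MaP R172H/- and MaP -/- tumors, 3.67% were called higher and 4.73% lower. None of 35 other homologous recombination genes was called between these groups. Of 14 other Fanconi genes, 1 rose, Cenpx, which encodes a partner of the FANCM translocase, from a mean of 9.32 to 15.6 CPM (log2 fold change 0.76, SE 0.162, edgeR FDR 0.0122). Of 25 other checkpoint genes, 1 rose and 1 fell: H2ax, the histone phosphorylated at breaks, had a log2 fold change of 1.34 (SE 0.319, edgeR FDR 0.0203), and Brcc3, a deubiquitinase bound to Brca1, one of -0.53 (SE 0.153, edgeR FDR 0.0472). Of 10 genes of non-homologous end joining, 1 fell, Dclre1c, which encodes the nuclease Artemis (log2 fold change -0.51, SE 0.143, edgeR FDR 0.0435). None of 7 mismatch repair genes and none of 4 genes of polymerase theta end joining was called. Of the latter, Parp1, which senses DNA breaks, had the highest value, 0.52 (SE 0.269, edgeR FDR 0.251).

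Markers of other cells and of the cell cycle differed between the same groups. Of 9 leukocyte markers 3 fell in the MaP R172H/- tumors. The 9 log2 fold changes had a median of -1.04, and the summed level a median of 433.7 CPM against 708.6 CPM. Of 9 fibroblast and mesenchymal markers 3 fell, and 3 had a value above 0, with a median of -1.19 over the 9. Of 5 endothelial markers 1 fell, Pecam1 (-0.77, SE 0.168, edgeR FDR 0.0135), without overlap of the groups, and all 5 had a value below 0. All 5 adipocyte markers were below 0 as well, with a median of -3.61, and none was called. None of 9 epithelial markers was called, but all 9 had a positive value, with a median of 1.302. Mki67 itself was between 544 and 856 CPM in the MaP R172H/- tumors, with a median of 593.7, and between 358 and 1082 CPM in the MaP -/- tumors, with a median of 633 (log2 fold change 0.09, SE 0.253, edgeR FDR 0.862). None of 31 mitotic genes was called. Of 35 S phase genes, E2f2, a transcription factor of the cell cycle, rose (0.61, SE 0.174, edgeR FDR 0.0461). The clamp loader subunit Rfc4 fell (-0.99, SE 0.282, edgeR FDR 0.0446), as did the replication clamp Pcna (-0.86, SE 0.246, edgeR FDR 0.0459). The part of these cells in the level of Fance was not tested.

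The second question was whether tumors with R245W differed from tumors without p53. None of the 33 genes was called, and 0 of 21452 genes tested passed an FDR below 0.05 (0.0% in each direction). At an unadjusted p below 0.05 edgeR had 0 members higher and 0 lower, against 5.32% and 6.46% of all genes. DESeq2 called 0 members in either direction at an FDR below 0.05, against 0.676% and 1.03% of all genes, and no member had groups without overlap, against 0.475% of all genes higher and 0.848% lower. The median log2 fold change was 0.0041 over the members and 0.02 over all genes. A gene that missed the threshold is not thereby shown to be equal in both groups.

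Single genes varied widely among the 5 MaP R245W/- tumors. Brca1 was 44.7 CPM in JM1233, 71.6 in JM1564, 100.8 in RM0014, 34.6 in JM1126 and 79.1 in JM1133, and spanned most of the MaP -/- range (log2 fold change -0.08, SE 0.337, edgeR FDR 0.939). Brca2 in the same order was 75.2, 56.1, 36.5, 29.2 and 33.3 CPM, with JM1233 and JM1564 above every MaP -/- tumor (log2 fold change 0.33, SE 0.273, edgeR FDR 0.641, and 0.09 without JM1233). Chek1 was 16.6, 28.0, 18.4, 8.67 and 18.1 CPM, with JM1564 above and JM1126 below every MaP -/- tumor (log2 fold change -0.0096, SE 0.329, edgeR FDR 0.995). JM1564 thus stood high for both Brca2 and Chek1, and JM1126 was the lowest of the group for all 3 of these genes. Atm was 150.1, 201.5, 97.7, 75.8 and 112.3 CPM, with JM1564 highest and JM1126 again lowest (log2 fold change -0.05, SE 0.271, edgeR FDR 0.953). The smallest p values of this comparison in each direction were those of Fance and Rad50 (0.39, SE 0.227, and 0.32, SE 0.208) and of Rad54l and Xrcc3 (-0.42, SE 0.252, and -0.25, SE 0.209), with edgeR FDRs between 0.510 and 0.649. Without JM1126 the value of Fance was 0.20, and without JM1233 that of Rad50 was 0.16. Fance was 19.5 CPM in JM1233, 12.4 in JM1564, 11.8 in RM0014, 24.5 in JM1126 and 15.6 in JM1133, so that 3 of the 5 tumors were above every MaP -/- tumor. None of the genes in the other repair lists was called. Mki67 had a log2 fold change of -0.17 in this comparison (SE 0.342, edgeR FDR 0.860). In contrast, 30 of 35 S phase genes and 25 of 31 mitotic genes had a value above 0, where 51.8% of all genes did. JM1126 also held the most fibroblast and mesenchymal marker RNA of all 18 tumors, 31368 CPM against a median of 6958 CPM in the MaP -/- tumors, and JM1233 the most skeletal muscle marker RNA, 843 CPM against a median of 2.54 CPM. Acta1, a muscle actin, led that list with a mean of 113.3 CPM in the group, and the part of either in the level of the members was not tested.

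The third comparison was between the mutants. Fancl was lower in the MaP R172H/- than in the MaP R245W/- tumors. It encodes the ubiquitin ligase subunit of the core complex, which modifies FANCD2 and FANCI. Its level was between 2.68 and 5.11 CPM in the MaP R172H/- tumors, with a median of 4.27. In the MaP R245W/- tumors JM1233, JM1564, RM0014, JM1126 and JM1133 it was 9.64, 7.36, 6.14, 5.15 and 9.58 CPM, so that the groups did not overlap, with JM1126 only just above the highest MaP R172H/- tumor. The log2 fold change was -0.89 (SE 0.266, edgeR FDR 0.0424), and the call was lost in a fit of these 2 groups alone (FDR 0.0549). Of 22481 genes tested, 6.49% were called lower and 2.91% higher in the MaP R172H/- tumors, and without overlap 4.05% were lower and 1.78% higher, so that 1 member of 33 is near or under the share of all genes. No other member was called by edgeR, and DESeq2 called 0 higher and 1 lower, against 5.03% and 7.32% of all genes. The MaP -/- tumors had Fancl between 4.09 and 12.1 CPM, with a median of 6.95, close to the MaP R245W/- group. Against the MaP -/- tumors, the log2 fold change was -0.80 in the MaP R172H/- group (SE 0.261, edgeR FDR 0.0749; DESeq2 -0.79, FDR 0.0224) and 0.06 in the MaP R245W/- group (SE 0.301, edgeR FDR 0.951). When 1 tumor was left out, the difference between the mutants stayed between -0.999 and -0.791, with an FDR below 0.05 in 7 of 18 fits, those without YZ6, YZ7, JM1126, JM663-T2, JM833-T1, JM833-T2 or JM779-T1. Fancl had few reads, with 62 counts in the lowest tumor and 359 in the highest, and Vrk2, on the opposite strand, overlaps it with a median of 323 counts against 174.

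**Figure D3:**
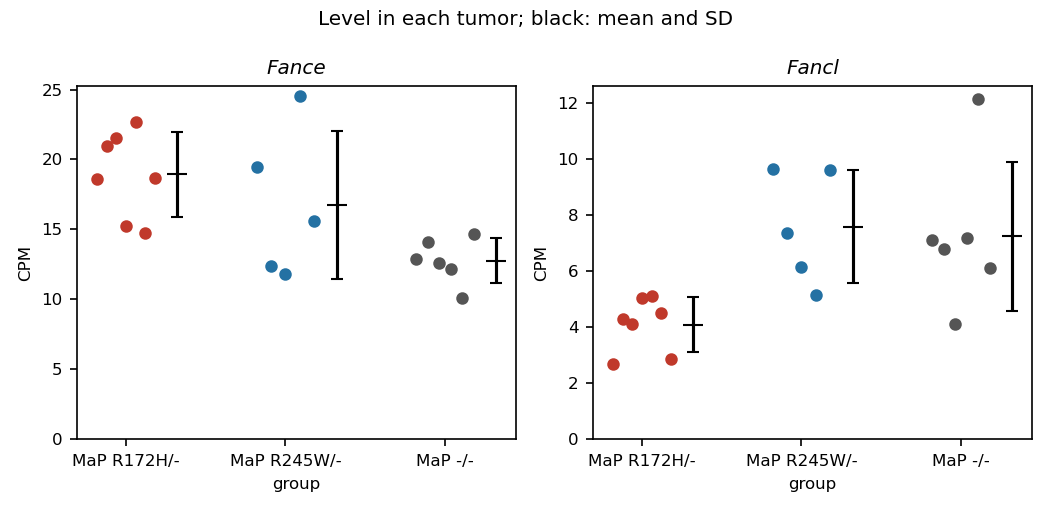
Level of Fance (left) and Fancl (right) in CPM, 1 point per tumor, with the mean and SD of each group in black. All 7 MaP R172H/- tumors lay above all MaP -/- tumors for Fance, and below all MaP R245W/- tumors for Fancl.

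Another 3 members had an unadjusted edgeR p below 0.05 in this comparison, where 11.4% of all genes were higher and 14.6% lower at that level. Brca2 had a log2 fold change of -0.61 (SE 0.254, FDR 0.135), which was -0.37 without JM1233. Xrcc2, a homologous recombination gene, had -0.48 (SE 0.211, FDR 0.163). Rad54l, which encodes a motor protein that moves along DNA, had 0.53 (SE 0.242, FDR 0.175), with a level of 15.3 CPM at the median and 29.2 CPM at the highest, in YZ7, of the MaP R172H/- tumors, and 15.7, 12.1, 11.4, 7.55 and 12.6 CPM in the MaP R245W/- tumors. The median over the 33 genes was -0.02, against 0.0028 over all genes. Brca1 had 0.13 (SE 0.292, FDR 0.827), Chek1 -0.10 (SE 0.298, FDR 0.870) and Atm 0.12 (SE 0.254, FDR 0.813). Fance, called between MaP R172H/- and MaP -/- tumors, had 0.18 between the mutants (SE 0.194, edgeR FDR 0.612), and the mutant groups overlapped. Of the other repair lists, Rnf8, a ubiquitin ligase that acts at breaks, was called higher and Brcc3 lower, where 2.91% and 6.49% of all genes were. The log2 fold change was 0.51 for Rnf8 (SE 0.150, FDR 0.0395) and -0.56 for Brcc3 (SE 0.169, FDR 0.0447). Of the S phase list Pcna, Rfc4 and the replication factor gene Gins2 were called lower, with log2 fold changes of -1.09, -1.19 and -0.75, and of the mitotic list Ccnb1, which encodes cyclin B1, with -1.17. Mki67 had 0.23 (SE 0.284, FDR 0.649). Markers of other cells also differed. All 9 fibroblast and mesenchymal markers were lower in value in the MaP R172H/- tumors, 1 of them called, with a median log2 fold change of -1.42. All 4 skeletal muscle markers tested were called lower, with a median of -5.13. Of 9 leukocyte markers 2 were called lower, but 5 had a positive value, and the median of the 9 was 0.13. All 5 adipocyte markers had a positive value, with a median of 3.63, and none was called. All 5 endothelial markers had a value below 0, with a median of -0.31, and none was called. The part of these cells in the level of Fancl was not tested.

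Within each group the tumors spread more widely in these genes than the group means did, and the 2 tumors with the least Mki67 had the lowest levels. Mki67 was lowest at 281 CPM in JM1126, followed by JM833-T1 at 358 CPM and JM663-T2 at 368 CPM, and highest at 1082 CPM in JM833-T2. As a summary of each tumor, the log2 CPM of the 33 genes were centred on their means over the tumors and averaged. This score was lowest in JM1126, at -0.49, and in JM833-T1, at -0.36, the same tumors that were lowest for Mki67. It was highest in YZ7, at 0.35, followed by JM1564, at 0.28, and JM779-T1, at 0.25. JM663-T2 had only the fifth lowest score, at -0.16, and YZ4, with 587 CPM of Mki67, had the third lowest, at -0.25. YZ7 also went against this order, since its Mki67, at 593.7 CPM, was the median of its group and only the tenth highest of all. The mean of its mitotic genes was the fourth highest, and that of JM779-T1 the highest. The group means of the score were -0.03 ± 0.214 (SD, n = 7) for MaP R172H/-, 0.03 ± 0.304 (SD, n = 5) for MaP R245W/- and 0.01 ± 0.236 (SD, n = 6) for MaP -/-.

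**Figure D4:**
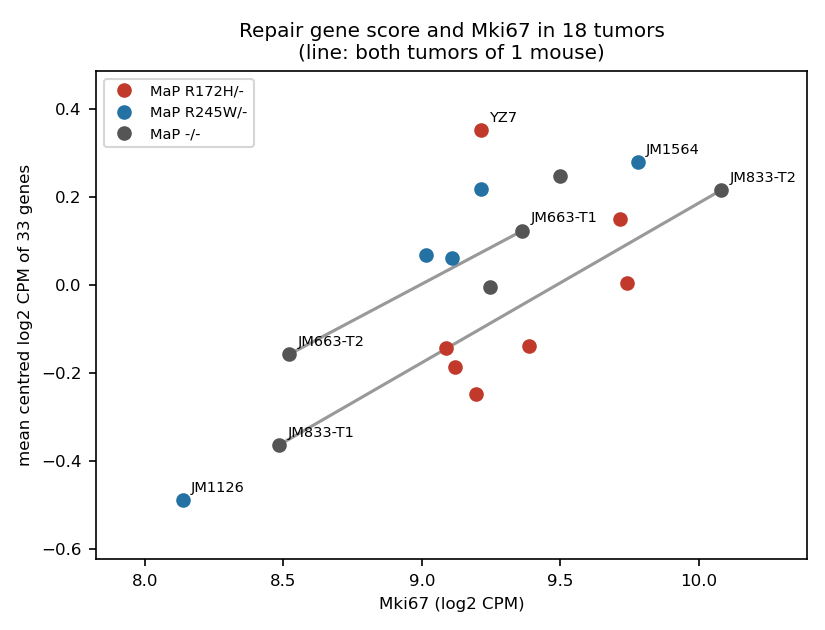
Mean centred log2 CPM of the 33 genes against the log2 CPM of Mki67, 1 point per tumor, coloured by group, with a line between both tumors of 1 mouse. The score was lowest in JM1126 (-0.49), which had the least Mki67, and highest in YZ7 (0.35), which had a middle level of Mki67.

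In both mice with a pair of tumors, most of the 33 genes were higher in the tumor with more Mki67, within 1 animal, platform and genotype. In mouse JM833, tumor T2 had 1082 CPM of Mki67 against 358 CPM in T1, and 27 of the 33 genes were higher in T2, with a median difference of 0.65 on the log2 scale. Over all genes tested, 48.9% were higher in T2 and the median difference was -0.02. Brca1 was 91.9 CPM in T2 and 28.4 CPM in T1, Chek1 19.0 and 9.13, and Brca2 48.3 and 25.7. The 6 genes lower in T2 were Rad52, Rad51d, Xrcc3, Nbn, Fancc and Fance. In mouse JM663, tumor T1 had 659 CPM of Mki67 against 368 CPM in T2, and 24 of the 33 genes were higher in T1, with a median difference of 0.32, where 52.0% of all genes were higher. The 9 genes lower in T1 were Rad51b, Nbn, Rbbp8, Rpa2, Fanca, Fancb, Fancf, Fancg and Atr, so that Nbn alone went against Mki67 in both mice. Each pair is 1 comparison of 2 libraries, without a test. In JM833 the tumor with less Mki67 also held more adipocyte marker RNA, 3858 CPM in T1 against 390 CPM in T2. T1 also held more endothelial marker RNA, 431 against 291 CPM, and less leukocyte marker RNA, 622 against 1247 CPM. Its fibroblast and mesenchymal marker RNA was 6660 against 6038 CPM. In JM663 the tumor with less Mki67, T2, held more fibroblast and mesenchymal marker RNA, 8270 against 3978 CPM, more leukocyte marker RNA, 723 against 438 CPM, and more endothelial marker RNA, 313 against 222 CPM. The part of these cells in the differences was not tested.

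The relation was measured over all 18 tumors as the slope of each gene on the log2 CPM of Mki67, with the group as a covariate, so that only differences between tumors of 1 group count. A slope of 1 means that the gene doubled when Mki67 doubled. For 30 of the 33 genes the slope was above 0, where 51.0% of all 22480 genes tested had such a slope. The median was 0.43 over the members and 0.0087 over all genes. No member passed an FDR below 0.05 with edgeR, where 0.0% of all genes had a called positive and 0.00445% a called negative slope. At an unadjusted p below 0.05, 17 members had a positive and 0 a negative slope, against 4.69% and 5.17% of all genes. DESeq2, a test added after the data were seen, called 4 members with a positive slope, Fanci, Blm, Palb2 and Chek1, where it called 0.398% of all genes. Genes that follow the cell cycle move together, so the members are not independent of each other.

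The steepest slopes were those of Chek1 and Fanci. Chek1 had a slope of 0.82 per log2 unit of Mki67 (SE 0.206, edgeR FDR 0.244). Fanci, whose protein is the partner of FANCD2, had a slope of 0.79 (SE 0.187, edgeR FDR 0.219); its level was between 12.1 and 18.05 CPM in the MaP R172H/- tumors, 15.9, 25.1, 25.1, 6.78 and 14.8 CPM in the MaP R245W/- tumors in the order JM1233, JM1564, RM0014, JM1126 and JM1133, and between 9.81 and 22.7 CPM in the MaP -/- tumors. JM1126 and JM833-T1, the tumors lowest for Mki67, were also lowest for Fanci. Brca1 had a slope of 0.68 (SE 0.228), Brca2 0.63 (SE 0.182), Exo1, a nuclease that lengthens the trimmed end, 0.63 (SE 0.236), Brip1 0.62 (SE 0.184), the translocase gene Fancm 0.62 (SE 0.177) and the helicase gene Blm 0.60 (SE 0.152), with edgeR FDRs between 0.247 and 0.399. Atm, at 0.57 (SE 0.197, edgeR FDR 0.359), was among the positive slopes as well. Fanci, Brip1 and Palb2, among other members, are overlapped by a gene on the opposite strand with more counts. These genes are Polg, with a median of 2283 counts against 398, Brip1os, with 2190 against 683, and Dctn5, with 1336 against 357. The part of such overlap in the slopes was not tested. By role, the median slope was highest for the 4 helicases and translocases, at 0.61, and for Fancd2 and Fanci, at 0.61, and lowest for the 7 genes of the Fanconi core complex, at 0.23. Differences between these roles were not tested.

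The 3 genes with a slope below 0 were Rad52, an annealing protein of single-stranded DNA, at -0.0021 (SE 0.182), Rbbp8 at -0.17 (SE 0.323) and Fance at -0.29 (SE 0.162, edgeR FDR 0.568). Fance, the gene called between MaP R172H/- and MaP -/- tumors, had the lowest slope of the 33 in this fit. Without JM1126 its slope was -0.13 and that of Rbbp8, at -0.43, was lower. Leaving out 1 tumor at a time gave -0.36 to -0.13 for Fance and -0.43 to -0.0081 for Rbbp8, the latter without JM663-T2. The highest level of Fance in all tumors, 24.5 CPM, was in JM1126, the tumor with the least Mki67. With Mki67 as a covariate Fance stayed called in the MaP R172H/- against MaP -/- comparison. Fancl had a slope of 0.55 (SE 0.203, edgeR FDR 0.391).

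Another measure of proliferation gave other calls. With the mean of 31 mitotic genes in place of Mki67, 30 members had a positive slope, not all of them the same genes, with a median of 0.48, and 16 had an unadjusted p below 0.05, where 7.83% of all genes did. Then 4 members passed an edgeR FDR below 0.05, where 0.841% of all genes did: Exo1 (0.88, SE 0.157, FDR 0.00948), Chek1 (0.95, SE 0.182, FDR 0.0148), Brca1 (0.90, SE 0.203, FDR 0.0439) and Brip1 (0.73, SE 0.168, FDR 0.0470). The slope of Rbbp8 turned to 0.57 (FDR 0.444) and that of Rad52 to 0.11. The slopes of Rad51d and Fancc turned to -0.30 and -0.26, from 0.02 and 0.23 on Mki67, while that of Fance stayed below 0, at -0.03. Within the 11 NovaSeq tumors alone, 30 members had a positive slope on Mki67, with a median of 0.50. Over all genes 53.2% had one, with a median of 0.03. Within the 7 HiSeq tumors, all MaP R172H/-, 20 members had a positive slope, with a median of 0.17. Over all genes the share was 43.9% and the median -0.09. In these 7 tumors 0 members had an unadjusted p below 0.05. At that level 0.838% of all genes had a positive and 1.15% a negative slope. Mki67 covers a narrower range in those tumors, from 544 to 856 CPM, and whether the slope differs between platforms was not tested.

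**Figure D5:**
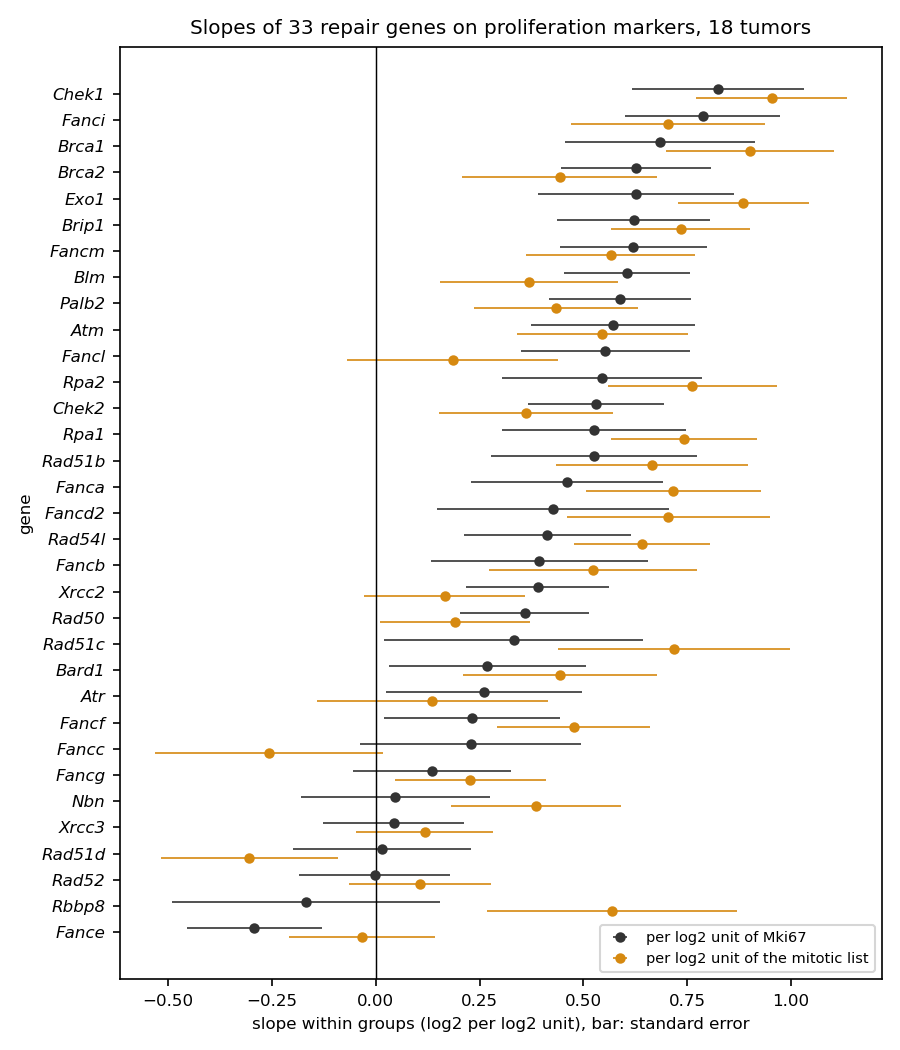
Slope of each of the 33 genes on the log2 CPM of Mki67 (black) and on the mean of 31 mitotic genes (orange), with groups as a covariate and the standard error as the bar. Chek1 lies at the top with 0.82 and 0.95, and Fance at the bottom with -0.29 and -0.03.

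The 17 positive slopes at an unadjusted p below 0.05 rested partly on the tumor with the least Mki67. Without JM1126 the number was 9, against 2.50% of all genes, and 28 of the 33 slopes were positive with a median of 0.33. Over all fits without 1 tumor, the number was between 9 and 19 and the positive slopes between 28 and 31. Between 2.5% and 6.24% of all genes had a positive slope at that p in these fits. With tumors of 1 mouse summed, 7 members had an unadjusted p below 0.05, against 4.06% of all genes, and 31 slopes were positive. The Mki67 fit of 18 separate tumors gave a positive slope for all 31 genes of the mitotic list, with a median of 0.62, and for 34 of the 35 S phase genes, with a median of 0.49. Markers of other cells were mixed in sign. All 9 fibroblast and mesenchymal markers had a slope below 0, with a median of -0.58, and so did all 5 endothelial and all 5 adipocyte markers, with medians of -0.56 and -2.16. Of 9 leukocyte markers 6 had a positive slope, with a median of 0.12, and of 4 skeletal muscle markers tested 3, with a median of 0.67. Of 9 epithelial markers 6 had a slope below 0, with a median of -0.45. None of these markers was called. At an unadjusted edgeR p below 0.05, 4 endothelial, 2 epithelial, 1 fibroblast and 1 adipocyte marker had a slope below 0, and 0 markers had one above 0. The 2 epithelial markers were the basal keratins Krt14 (-2.60, SE 0.709) and Krt5 (-2.48, SE 1.06). The part of these cells in the slopes of the members was not tested.

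Most of the other genes of the pathways also had positive slopes on Mki67. Of 35 other homologous recombination genes, 29 had a positive slope, 11 of them at an unadjusted p below 0.05 and 1 negative slope at that level, with a median of 0.22. Fignl1 had a slope of 0.88 (SE 0.195) and the helicase gene Mcm8 one of 0.64 (SE 0.168). Of 14 other Fanconi genes 11 had a positive slope, with a median of 0.19, and of 25 other checkpoint genes 21, with a median of 0.26. Of 10 genes of non-homologous end joining 7 had a positive slope, with a median of 0.17. All 4 genes of polymerase theta end joining had one, led by Polq, the polymerase itself (0.89, SE 0.208, edgeR FDR 0.203), and so did all 7 mismatch repair genes, with a median of 0.24. None of the genes in these 6 lists passed an edgeR FDR below 0.05 for the slope on Mki67. For the slope on the mitotic list 7 of the 35 other homologous recombination genes, 1 of the 14 other Fanconi genes and 1 of the 25 other checkpoint genes were called, all positive, and 0 genes of the remaining 3 lists. Over all genes 0.841% had a called positive slope on that list.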

How the data were processed

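Ribosomal RNA-depleted total RNA of 18 mammary tumors was analysed. FastQC 0.11.9 was applied to the reads by the authors, who aligned these to GRCm39 with STAR 2.7.10b and obtained raw counts per gene from RSEM 1.3.3 and the GENCODE M34 annotation. The counts were deposited as whole numbers, not normalized. How estimated counts were rounded and which strand setting was used are not given in the sources used here. Total counts were between 23113578 and 37365062, and 56620 of 57126 gene identifiers matched GENCODE M39, from which coordinates, exon lengths and upstream sequences were taken.

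Counts were normalized with TMM and filtered with filterByExpr, and edgeR 4.0.16 (R 4.3.3) was used for quasi-likelihood tests with Benjamini-Hochberg adjustment over all genes tested. Genes at an FDR below 0.05 were called. Separate fits set either mutant group against the MaP -/- tumors. The comparison of the mutants and the Mki67 slopes, with group as covariate, came from fits of 18 tumors. CPM use TMM library sizes, and log2 CPM a prior count of 2. Tumors, not mice, were the replicates. The members, the lists and the tests were chosen with earlier results of these data known. Brca1, Brca2, Chek1 and Atm were named in each comparison, with called members or, without calls, the 2 smallest p in each direction, and up to 3 genes of each other list. Other members given for an extreme level, p or slope, such as Xrcc2, Fancb and Exo1, were named after their values were seen. The alternatives were DESeq2 1.42.0 (size factors and Wald test), other filters, a fold change threshold, other sets of tumors, covariates for Mki67 or mitotic genes, and each tumor left out in turn. The tests were tested on simulated data. Tables and figures were made in Python 3.11.15 (numpy 2.4.6, pandas 2.3.3, matplotlib 3.10.9).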

Additional observations from a re-analysis of the deposited data

Results flagged for a closer look

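In 11 of 99 sets of values, 1 gene in 1 group each, a single tumor lay apart from the others by Dixon's criterion, which flags about 1 in 20 such sets by chance. The number in parentheses is the gap to the nearest tumor as a share of the range of the group, both in log2 CPM. Of the 11, 6 fell on YZ7, a MaP R172H/- tumor with little epithelial marker RNA. YZ7 was highest of its group for Rad51c (0.662), with 12.9 CPM against a median of 5.05, for Xrcc3 (0.697), Rbbp8 (0.703), with 198.3 CPM against 55.9, Rpa1 (0.809), Rad54l (0.729) and Atr (0.602). Brca2 was highest in YZ3 (0.589), with 49.8 CPM against a median of 28.9. In the MaP -/- group, Rad51c was lowest in JM833-T1 (0.756), while in JM779-T1 Fancf was highest (0.641) and Atr lowest (0.628). In the MaP R245W/- group, Brip1 was lowest in JM1126 (0.824), at 16.6 CPM against a median of 24.7.

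Fancl differed between the mutant groups in the direct test, at a log2 difference of -0.89, and was lower in 7 of 7 MaP R172H/- tumors than in any of 5 MaP R245W/- tumors. Of 22481 genes tested, 6.49% were called lower and 4.05% were lower without overlap, so that 1 member of 33 is near or under these shares. The call held in 7 of 18 fits without 1 tumor. Platform and subtype cannot be told apart from genotype here.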

How the results depend on the processing

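No paired analysis was possible because the groups share no mouse and the replicate numbers, given in accession order, tie no tumors together. For the 2 mice with a pair of tumors, a mouse term in the slope fit was not run. The signs and calls of most results held under the alternatives tried. The exceptions are given here and in the next paragraph, and their cause was not tested unless given. In MaP R172H/- against MaP -/- tumors, the number of members called higher was 1 and went to 0 without a filter on low counts (Fance FDR 0.0908), in a fit of all 18 tumors (0.0686), with tumors of 1 mouse summed (0.0994) and at an absolute log2 fold change of at least 1, a threshold above the change of Fance. The number lower went from 0 to 1 with DESeq2 and with Mki67 as covariate (Fancl in both). Between the mutants, the number lower was 1 and went to 0 without a filter, in a fit of the 2 groups alone, with the mitotic list as covariate and at the fold change threshold, and to 2 with Mki67 as covariate (Brca2 and Fancl). The number higher went from 0 to 1 with the mitotic list as covariate (Rad54l). For the slopes, the number positive went from 0 to 4 with the mitotic list in place of Mki67, and to 4 with DESeq2, chosen after seeing the data. With DESeq2 in the slope, 18 members had a positive and 0 a negative slope at an unadjusted p below 0.05. Over all genes the shares were 3.13% and 4.14%.

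With 1 tumor left out, the number called was between 0 and 1 for MaP R172H/- higher than MaP -/-, and for MaP R172H/- lower than MaP R245W/-. Signs also turned, and none of the values given next was called. In the HiSeq tumors alone 43.9% of all genes had a positive slope, against 51.0% in all tumors. Of the 33 members, 13 had a slope below 0 in the HiSeq tumors, against 3 in all tumors. Among those that turned, Exo1 went from 0.63 to -0.0028, Fancm from 0.62 to -0.13, Rpa1 from 0.53 to -0.45 and Rad51c from 0.33 to -0.91. With Mki67 as covariate Brca1 went to -0.0032 (MaP R172H/- against MaP -/-), 0.0623 (MaP R245W/- against MaP -/-) and -0.0612 (between the mutants). Chek1 in MaP R245W/- against MaP -/- went to 0.0719 with Mki67 as covariate, 0.0182 with DESeq2 and 0.0121 without a filter, and between the mutants to 0.0576 with the mitotic list as covariate. Fancl in MaP R245W/- against MaP -/- went to -0.01 with that covariate, and with the mitotic list in place of Mki67 the slope of Rbbp8 went to 0.5684, Rad52 to 0.11, Rad51d to -0.30 and Fancc to -0.26. Leaving out 1 tumor in MaP R172H/- against MaP -/- gave ranges of -0.0962 to 0.199 for Brca1, -0.2279 to 0.0752 for Chek1 and -0.0528 to 0.2237 for Atm. In MaP R245W/- against MaP -/- they were -0.2901 to 0.0742 for Brca1, -0.2248 to 0.1539 for Chek1, -0.2763 to 0.0879 for Atm and -0.064 to 0.2683 for Fancl. Between the mutants they were -0.0357 to 0.333 for Brca1, -0.2743 to 0.1195 for Chek1 and -0.027 to 0.345 for Atm. Medians over the 33 genes turned as well. Over the alternatives they ranged from -0.1009 to 0.071 (MaP R245W/- against MaP -/-) and -0.1349 to 0.0211 (between the mutants). With 1 tumor left out the ranges were -0.1039 to 0.0389 (MaP R172H/- against MaP -/-), -0.0735 to 0.1333 and -0.1936 to 0.0382. Without the group as covariate, the slope of Rad51d was -0.0267 and that of Rad52 0.0271.

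Depth was lowest for Fancf, with 48 counts in 1 tumor, Fancl, with 62, and Rad51c, with 68. P-values treat tumors as independent, although 2 mice gave 2 tumors each.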
